A study of Mus musculus with 16 samples.

Results

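The CD3 complex genes are Cd3e, Cd3d and Cd3g, which lie side by side on chromosome 9, and Cd247, which encodes the zeta chain on chromosome 1. Open chromatin at these 4 genes was examined in mouse thymocytes by ATAC-seq, in which a transposase tags the DNA it can reach with sequencing adapters. A peak belonged to the set if it lay in the gene body of a member or within 20 kb on either side, in mm10 with the GENCODE M21 annotation, and the 3 genes of chromosome 9 were taken as a single locus. Regions are unions of the peaks of different stages that overlapped by 1 bp or more. The 2 loci held 77 of the 185978 regions of the series, 25 at the chromosome 9 cluster (chr9:44949572-45029627) and 52 at Cd247 (chr1:165768681-165897277). The cells were double negative (DN, CD4-CD8-), double positive (DP, CD4+CD8+) and single positive, either for CD4 (SP4) or for CD8 (SP8), from 4 wild-type C57BL/6J mice, 9 weeks old, with 1 library per stage and mouse, 16 in all. The authors pooled the 4 mice of a stage before they called peaks, so there is 1 list per stage, no value has a replicate error, and the comparisons describe these lists without a test. The authors down-sampled libraries to the median depth, and the lists give no read numbers for a peak.

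CD3 chains carry the signal of the T cell receptor (TCR). The receptor's own chains have short tails, and the CD3 epsilon, delta, gamma and zeta chains bring the immunoreceptor tyrosine-based activation motifs (ITAMs) that Lck phosphorylates and Zap70 then binds. CD3 chains are already made in DN cells, where the pre-TCR signals through them, and surface CD3 is highest on mature cells. Surface CD3 was also part of the sort: DN cells were gated CD3-negative and SP4 and SP8 cells CD3-positive, with an antibody to the epsilon chain, while DP cells had no CD3 gate. Stage and CD3 surface level can therefore not be told apart here.

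The sequences that the results turn on are the upstream sides of the 4 start sites and the centres of 5 regions that stood high or differed between stages. The upstream sequences are those of RefSeq (GRCm38.p6), from 200 to 21 bases before the start site, written on the strand of the gene. All 4 members were matched by symbol. Capitals mark matches on either strand to the letters of 7 motifs, and neighbouring matches can overlap. RUNX factors were searched with TGTGGT and with the variant TGCGGT, E proteins with the E-box forms CAGCTG and, as the other form, CAGGTG. ETS factors were searched with AGGAAG and with the variant CCGGAA, and GATA factors with AGATAA and with the variant TGATAA. The TCF/LEF family was searched with CTTTGA, the CREB family with the CRE letters TGACGT, and the insulator protein CTCF with AGGGGGC and with the further variants AGGTGGC and, as the last form, AGATGGC. A CRE match was present upstream of Cd3e, a pair of TCF/LEF matches with an E-box and an ETS match upstream of Cd3d, a pair of E-boxes with GATA and CTCF letters upstream of Cd3g, and an ETS match alone upstream of Cd247. Among the 32851 RefSeq upstream sequences of the same 180 bases, 5.02% held the CRE letters, 10.1% TCF/LEF, 21% an E-box, 29.2% ETS, 12.3% GATA, 13.6% CTCF and 13.7% RUNX letters. A match is a string of letters and not a measured binding site.
Cd3e upstream (chr9:45009632-45009811, minus strand): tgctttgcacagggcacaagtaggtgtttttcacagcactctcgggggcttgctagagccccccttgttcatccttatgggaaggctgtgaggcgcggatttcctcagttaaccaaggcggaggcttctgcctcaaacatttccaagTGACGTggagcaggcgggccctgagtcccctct
Cd3d upstream (chr9:44981586-44981765, plus strand): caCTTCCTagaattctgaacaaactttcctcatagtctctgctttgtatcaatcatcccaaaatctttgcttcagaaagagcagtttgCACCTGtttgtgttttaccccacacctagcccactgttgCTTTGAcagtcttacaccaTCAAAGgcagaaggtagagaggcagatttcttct
Cd3g upstream (chr9:44980452-44980631, minus strand): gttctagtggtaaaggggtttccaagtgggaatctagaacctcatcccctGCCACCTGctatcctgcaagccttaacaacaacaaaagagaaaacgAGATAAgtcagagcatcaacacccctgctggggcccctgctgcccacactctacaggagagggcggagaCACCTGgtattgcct
Cd247 upstream (chr1:165788481-165788660, plus strand): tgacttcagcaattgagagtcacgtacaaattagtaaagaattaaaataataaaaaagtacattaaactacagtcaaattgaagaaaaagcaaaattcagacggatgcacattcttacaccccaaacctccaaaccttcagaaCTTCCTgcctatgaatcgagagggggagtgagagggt

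The other 5 sequences are 200 bases of GRCm38.p6 around the highest summit of a region. The first lies between the 3′ ends of Cd3d and Cd3e, the second upstream of Cd3e, and the last 3 in intron 1 of Cd247. The first Cd247 sequence held 3 E-boxes and a RUNX match, the second a RUNX and an ETS match, and the last a pair of ETS matches of which 1 overlapped a GATA match.
between Cd3d and Cd3e (chr9:44996717-44996916, plus strand): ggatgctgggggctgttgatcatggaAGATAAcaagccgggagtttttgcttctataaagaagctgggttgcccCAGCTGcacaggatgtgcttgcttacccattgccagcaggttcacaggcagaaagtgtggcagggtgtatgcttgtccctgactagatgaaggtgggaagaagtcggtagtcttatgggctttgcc
upstream of Cd3e (chr9:45015916-45016115, plus strand): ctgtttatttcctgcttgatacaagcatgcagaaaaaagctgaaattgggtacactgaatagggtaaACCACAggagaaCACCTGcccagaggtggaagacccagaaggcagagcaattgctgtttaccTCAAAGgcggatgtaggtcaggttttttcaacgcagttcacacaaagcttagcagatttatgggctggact
Cd247 intron 1, first (chr1:165802049-165802248, plus strand): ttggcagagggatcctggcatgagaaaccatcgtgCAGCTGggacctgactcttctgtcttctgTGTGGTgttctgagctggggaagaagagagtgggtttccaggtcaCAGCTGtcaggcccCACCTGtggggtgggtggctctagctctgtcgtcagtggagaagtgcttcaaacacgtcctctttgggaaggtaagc
Cd247 intron 1, second (chr1:165810738-165810937, plus strand): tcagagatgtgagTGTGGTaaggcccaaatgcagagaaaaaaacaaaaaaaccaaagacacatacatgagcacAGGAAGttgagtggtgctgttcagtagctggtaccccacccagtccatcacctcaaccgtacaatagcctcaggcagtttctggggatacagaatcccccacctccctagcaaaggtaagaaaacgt
Cd247 intron 1, last (chr1:165811267-165811466, plus strand): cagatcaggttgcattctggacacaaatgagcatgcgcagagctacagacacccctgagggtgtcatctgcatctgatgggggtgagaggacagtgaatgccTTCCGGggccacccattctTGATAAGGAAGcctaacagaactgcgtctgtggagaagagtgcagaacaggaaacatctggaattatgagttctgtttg

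Both loci were open at every stage, with similar numbers of peaks. The DN list held 66 peaks there, the DP list 57, the SP4 list 63 and the SP8 list 61, although the whole DN list was the longest, with 150139 peaks against 107110 (DP), 115074 (SP4) and 104411 (SP8). At the cluster the numbers were 24, 21, 20 and 19 peaks in that order, and at Cd247 42, 36, 43 and 42. Peaks covered 10.6% (DN), 10.1% (DP), 9.90% (SP4) and 9.53% (SP8) of the 2 windows, while all peaks of a list covered between 1.36% (DP) and 1.81% (DN) of chromosomes 1 to 19. The window of Cd247 held 4.04 regions per 10 kb, a density above that of 98.3% of 20807 protein-coding genes, whose median was 1.39. The windows of Cd3e (3.93 per 10 kb), Cd3d (3.29) and Cd3g (3.15), which overlapped, were denser than those of 97.9%, 93.7% and 92.1% of the genes.

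Regions shared by all 4 stages made up 40 of the 77, or 51.9%, against 34.1% of all regions of the series and 35.6% of the 150163 regions within 20 kb of a protein-coding gene. Regions called at a single stage numbered 17, or 22.1%, against 38.5% of all regions and 37.2% of those near genes. Of the 17, 7 belonged to the DN list, 1 to the DP list, 5 to the SP4 list and 4 to the SP8 list. These are 9.09%, 1.30%, 6.49% and 5.19% of the 77, against 21.7%, 5.17%, 7.39% and 4.21% of all regions, so single-stage DN regions were a smaller share here than in the series. At the cluster 15 of 25 regions were shared by all 4 stages and 4 were single-stage, and at Cd247 25 of 52 were shared and 13 single-stage. By fold enrichment the highest of them was an SP8 region in intron 1 of Cd247 (chr1:165822119-165822394), with a fold enrichment of 5.86. By −log10 q-value a DN region upstream of Cd3e (chr9:45011367-45011755) was highest, at a percentile of 73.9. Both were named after their values were seen.

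The height of a region at a stage is given as the percentile of its fold enrichment among all peaks of that stage's list, 0 where no peak was called, so that 90 means that 90% of the peaks were lower. Where a list had several peaks in a region, the highest was taken. The fold enrichment is the ratio of reads at the summit to the local background. Start sites are those of protein-coding transcripts, and distances were measured to the start site nearest to a summit. That is base 45009613 for Cd3e, which lies inside the annotated gene end, base 165788689 for the summit at the start of Cd247 and base 165788765, the most downstream of its start sites, for the regions in its introns. All 4 CD3 genes had a start site region called at all 4 stages, as did 56% of 20698 protein-coding genes. Of the 4, 0 differed by 20 points or more between any 2 stages, against 15.9% of the 20698. The 15.9% includes genes with no start site region at any stage, which cannot differ. The CD3 start sites were thus open at DN, in cells sorted for absence of surface CD3. Their heights there were about those seen in the CD3-positive SP4 and SP8 cells.

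Cd3e (chr9:44998740-45009627, minus strand) encodes the epsilon chain, which pairs with the delta and gamma chains. Its start site region (chr9:45009031-45009963) stood at the 77.5th percentile at DN and 78.0 at DP, then 79.4 at SP4 and 74.5 at SP8, with fold enrichments of 10.6, 11.0, 12.4 and 11.4. The 4 values lay within 4.86 points, the order being SP4, DP, DN and SP8. Its summit lay 5 bases downstream of the transcript start at DN, 4 bases upstream at DP and 22 bases upstream at SP8, but 236 bases downstream, in coding sequence, at SP4. The region was wide, 906, 781, 863 and 738 bp at DN, DP, SP4 and SP8.

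Cd3g (chr9:44969572-44980431, minus strand) encodes the gamma chain, and its start site lies head to head with that of Cd3d, 1355 bases apart. The region at Cd3g (chr9:44980215-44980705) had fold enrichments of 18.9 (DN), 15.7 (DP), 18.1 (SP4) and 19.1 (SP8), which are heights of 93.4, 88.7, 90.3 and 90.7. Cd3d (chr9:44981786-44987339, plus strand) encodes the delta chain, and the region at its start site (chr9:44981640-44981882) was lower and narrower. Its fold enrichment was 4.33 at DN and 4.97 at DP, then 4.44 at SP4 and 5.24 at SP8, which are heights of 33.2, 44.7, 32.0 and 42.3. With the region over the start site, Cd3d was the lowest of the 4 genes at every stage. How low depended on the scale, since as percentiles of −log10 q-value its heights were 72.5, 80.8, 74.3 and 78.1, again the lowest of the 4. By fold enrichment, between 5.82% (SP4) and 8.66% (DP) of the start sites called at a stage were lower. With start sites within 1 kb it took the region at its 3′ end, which stood above the Cd3e start site at every stage. The summits at Cd3g lay 1 to 10 bases upstream of the start site, and those at Cd3d 60 to 64 bases upstream at DN, DP and SP8 and 6 bases downstream at SP4.

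Cd247 (chr1:165788681-165877277, plus strand) encodes the zeta chain, whose tail carries more ITAMs than any other CD3 chain. The region at its start site (chr1:165788542-165788925) had the highest fold enrichment of the 4 genes at DN (26.9), DP (19.7) and SP4 (21.7), and Cd3g exceeded it at SP8, where it had 17.3. Its heights were 98.6, 93.9, 94.3 and 88.1, and 96.5% of the start sites called at DN were lower, against 65.0% at SP8. The DN height was 10.5 points above the SP8 height, short of the 20 points used here as a difference. The summit lay at the same base in all 4 lists, 5 bases downstream of the nearest transcript start, in the 5′ UTR.

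**Figure D1:**
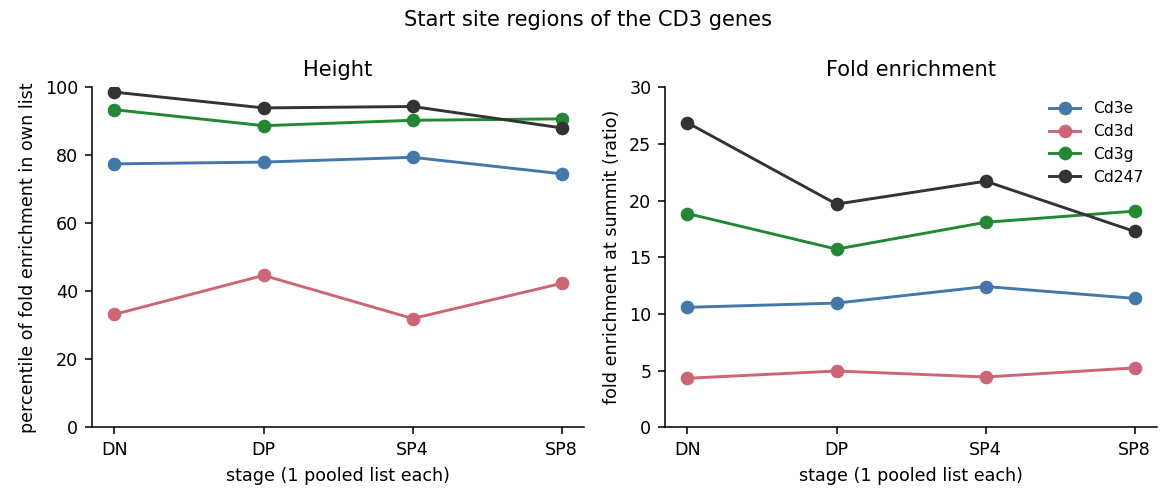
Height (left, percentile of fold enrichment within the list of each stage) and fold enrichment at the summit (right, ratio) of the start site regions of Cd3e, Cd3d, Cd3g and Cd247 at DN, DP, SP4 and SP8, 1 point per pooled list. Cd3d lies lowest at each stage, between 32.0 and 44.7 percentile points, and Cd247 runs from 98.6 at DN to 88.1 at SP8.

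Within the cluster, the high regions away from the start sites included sites at and beyond the 3′ ends of the genes. An enhancer on the 3′ side of Cd3d is known in T cells. The widest of these regions (chr9:44985844-44987004) spanned the last exons of Cd3d, with its summit in the 3′ UTR, and stood at 90 (DN), 90.2 (DP), 86.1 (SP4) and 83.9 (SP8), far above the start site of the same gene. The region between the 3′ ends of Cd3d and Cd3e (chr9:44996629-44997093) had heights of 88.1, 86.0, 85.3 and 68.1, with SP8 lowest. Its fold enrichment was 15.1, 14.3, 15.1 and 9.55.

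Upstream of Cd3e, all 7 regions of the window differed by 20 points or more between some stages, and not in the same direction. Such a range was common, found for 64.2% of all regions of the series and 51.9% of those called at all 4 stages. The region 6.40 kb upstream of the start site (chr9:45015764-45016368) stood at 83.5 at DN and 87.7 at DP, but at 50.9 at SP4 and 66.3 at SP8, with fold enrichments of 12.7, 15.2, 6.01 and 9.13. A neighbour 5.48 kb upstream (chr9:45014966-45015205) was not called at DN and stood at 43.0 (DP), 55.9 (SP4) and 48.4 (SP8). The region 1.01 kb upstream (chr9:45010359-45010830) was higher in the mature cells, with 33.4 at DN and 38.5 at DP, then 64.4 at SP4 and 63.3 at SP8. This last region is named after its values were seen. The start site region of Cd3e itself varied by 4.86 points.

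The highest region of the cluster window lay within a neighbouring gene, in intron 3 of Ube4a, which encodes a ubiquitin ligase (chr9:44954303-44955179), and stood between 94.0 (DP) and 98.2 (SP8). Which gene it acts on was not measured.

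**Figure D2:**
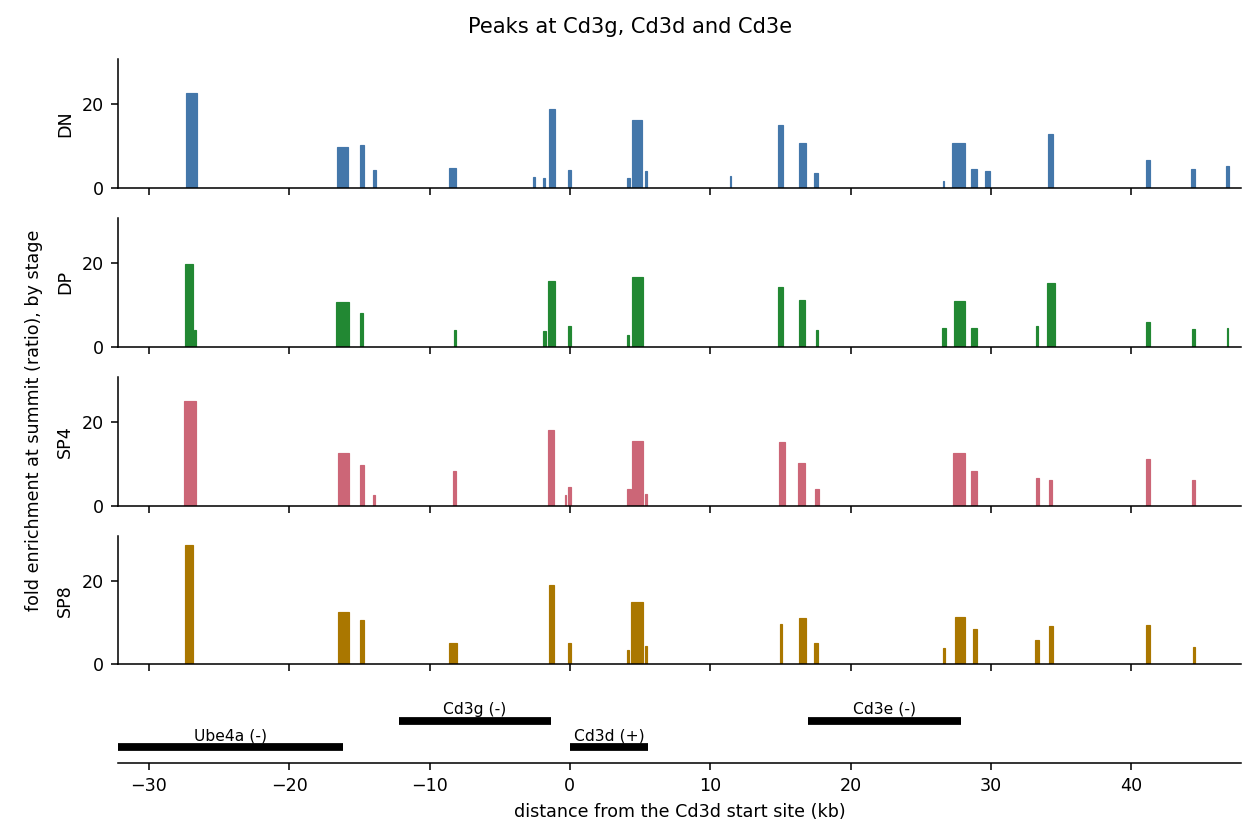
Peaks of the 4 lists at Cd3g, Cd3d and Cd3e by distance from the Cd3d start site (kb); the width of a bar is the width of the peak, its height the fold enrichment at the summit (ratio), and black lines are protein-coding gene bodies with their strand. The peaks at the Cd3g and Cd3e start sites and at the 3′ end of Cd3d recur in each list, while the peak 6.40 kb upstream of Cd3e is lower at SP4 (6.01) and SP8 (9.13) than at DP (15.2).

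At Cd247, 39 of the 52 regions had their highest summit in an intron of the gene, 35 of them in intron 1. Among the regions called at all 4 stages, the range of heights over the stages was wider at Cd247 than at the cluster, with a median of 20.4 points over 25 regions against 12.7 over 15 and 20.9 over the 63369 such regions of the series. The 90th percentile of that range was 69.4 points at Cd247, 33.4 at the cluster and 51.2 in the series. A range of at least 40 points, a limit chosen after the values were seen, was found for 7 of the 25 at Cd247 and 0 of the 15 at the cluster, against 20.1% of the shared regions of the series. With percentiles among the regions called at all 4 stages, a scale also chosen after the values were seen, it was found for 7 regions at Cd247, 5 of them the same, and for 1 at the cluster, the region 6.40 kb upstream of Cd3e (52.2 points). The 20.1% belongs to the first scale. No share of the series is given on the other, so its counts are not compared with the series.

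The 3 widest ranges among these 7 were of regions in intron 1 that stood highest at DN or DP. The region 13.4 kb downstream of the start site (chr1:165801743-165802645) reached 89.4 at DN and 93.8 at DP and stood at 21.8 at SP4 and 31.8 at SP8, with fold enrichments of 15.8, 19.6, 3.85 and 4.38. At DP it was a single peak of 903 bp. The SP4 value was that of a separate peak of 198 bp (chr1:165801786-165801983) away from the DN, DP and SP8 summits, and the SP4 peak nearest to those summits had a fold enrichment of 2.54, at a percentile of 1.73. The region 22.6 kb downstream of the start site (chr1:165811161-165811733) had heights of 87.6, 74.3, 8.64 and 25.2, with fold enrichments of 14.7, 9.78, 3.16 and 4.00. The region 28.9 kb downstream of the start site (chr1:165817150-165817815) stood at 78.3 (DN), 34.8 (DP), 14.7 (SP4) and 4.26 (SP8), and its summits were spread over 244 bp. Ranges as wide as those of the 3 regions were found for 1.64%, 0.634% and 1.29% of the shared regions of the series.

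The other 4 were low at DN or SP4. The region 22.1 kb downstream of the start site (chr1:165810713-165810952) ends 208 bases before the second of those regions begins and went the opposite way, with heights of 1.19 at DN and 39.3 at DP, then 41.3 at SP4 and 63.4 at SP8. The region 1.37 kb downstream (chr1:165789952-165790417) stood at 1.84, 52.1, 17.6 and 55.4, highest at SP8 with DP next. The region at chr1:165848811-165849362, 60.5 kb downstream, had 0.195, 42.7, 0.206 and 22.2, highest at DP. Its fold enrichment was low at DN (2.05) and SP4 (2.08). With percentiles among regions called at all 4 stages, the regions 1.37 kb and 60.5 kb downstream ranged over 34.5 and 21.4 points, short of 40. The fourth (chr1:165865228-165865445), where the 3′ UTR of Pou2f1 overlaps Cd247 on the other strand, had 34.2, 43.0, 0.569 and 66.1. At each of the 4, SP8 was above SP4. Of the 7, those at 165801743 and 165811161 fall under the rule for named regions and the other 5 were named after their values were seen.

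A further region of intron 1 (chr1:165843660-165843985) was not called at SP8 and stood at 60.8 at DN, 56.4 at DP and 0.102 at SP4, with summits spread over 162 bp. Over the whole of intron 1, 15 of the 35 regions ranged over 20 points or more, and 8 of the 14 called at all 4 stages did, against the same 64.2% and 51.9% of the series. Of the rest, the region 49.0 kb downstream of the start site (chr1:165837329-165837916), named after its values were seen, stood at 75.6, 75.9, 81.9 and 78.5.

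High regions of the Cd247 window also lay in its neighbours. The body of Pou2f1, which encodes the transcription factor Oct-1, overlaps the 3′ end of Cd247. At a coding exon of Pou2f1 (chr1:165882706-165883202) the height was 99.7 (DN), 90 (DP), 86.6 (SP4) and 60.4 (SP8), and at another coding exon (chr1:165891592-165892008) 90, 97.6, 99.7 and 97.9. In an intron of Pou2f1 the region chr1:165882272-165882597 was not called at DN and had 59.4 at DP, 51.2 at SP4 and 19 at SP8. Upstream of Cd247, a region in intron 3 of Creg1 (chr1:165771541-165771891) stood between 87.8 (SP4) and 96.7 (DN), and a region between the genes (chr1:165779904-165781591) between 71.9 (SP4) and 84.9 (DP). Which gene each of these regions acts on was not measured.

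**Figure D3:**
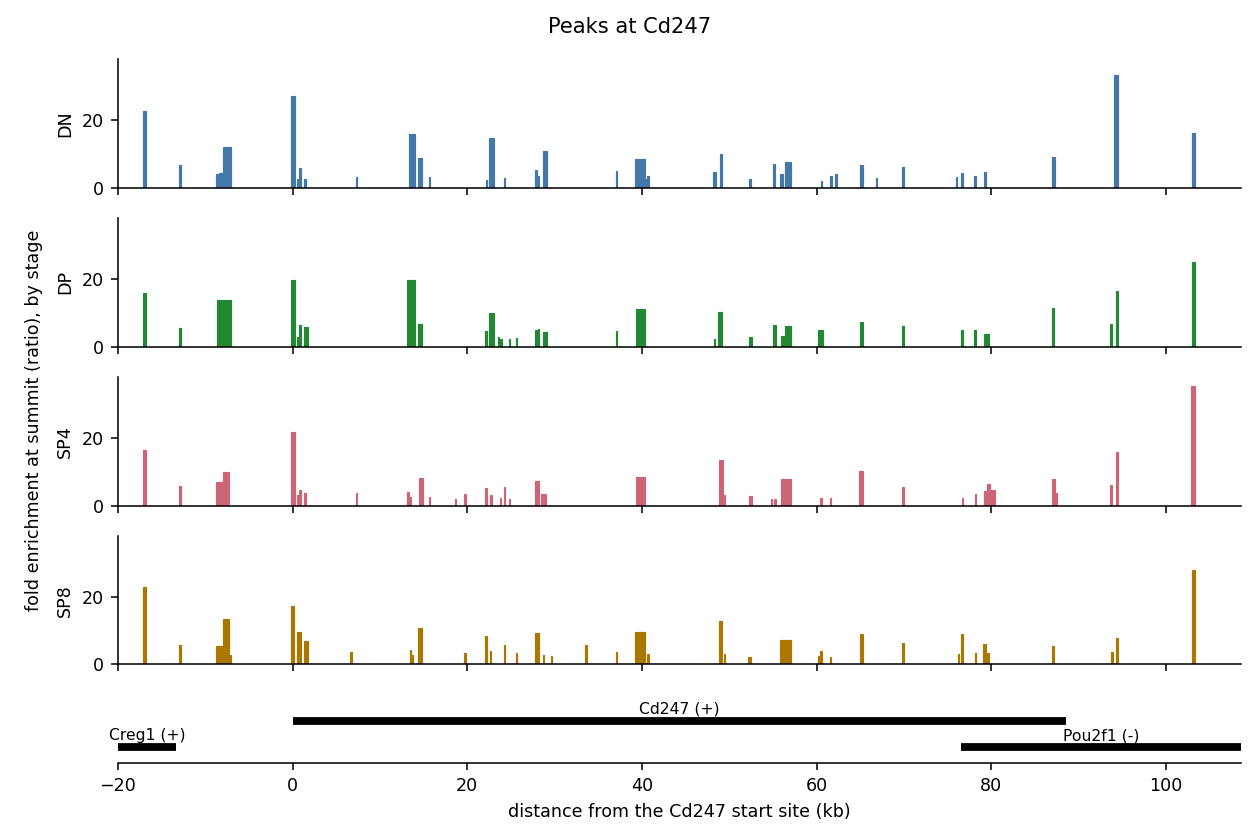
Peaks of the 4 lists at Cd247 by distance from its most upstream start site (kb); the width of a bar is the width of the peak, its height the fold enrichment at the summit (ratio), and black lines are protein-coding gene bodies with their strand. The tall intron 1 peak of chr1:165801743-165802645 reaches 15.8 at DN and 19.6 at DP, and the highest peaks of the same region are 3.85 at SP4 and 4.38 at SP8.

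A difference of at least 20 points was counted for each step of development, with a region not called at a stage set to 0 there. From DN to DP, 8 of the 77 regions (10.4%) were higher at DP, against 8.31% of all regions, and 6 (7.79%) lower, against 30.4%. From DP to SP4, 6 (7.79%) were higher at SP4, against 17.3%, and 14 (18.2%) lower, against 13.4%. From DP to SP8, 8 (10.4%) were higher at SP8, against 13.5%, and 12 (15.6%) lower, against 15%. Between the mature stages, 10 (13.0%) were higher at SP8 than at SP4, against 8.06%, and 5 (6.49%) lower, against 13.8%. So fewer regions of the CD3 loci than of the series were lower at DP than at DN or higher at SP4 than at DP, and for the step to SP8 the shares lay nearer to those of the series. With a limit of 30 points, 3 were higher at SP8 than at DP, against 8.95%. With 2-fold differences in fold enrichment, over regions called at both stages, 0 were higher at SP8 than at DP, against 7.70%. Heights are ranks within lists of different lengths, so the longer DN list bears on them. With equal numbers of peaks per list, an alternative chosen after seeing the data, only regions that kept a peak were counted, fewer than the 77. Of these, 18 were higher at DP than at DN, against 17.3% of such regions of the series, and 1 lower, against 17.6%. In that setting 6 were higher at SP4 than at DP, against 17.5%. Each of the 8 counts moved by over 1.5 times under at least 1 other setting, and the 6 regions lower at DP than at DN numbered between 1 and 13. The share of the series was 13.2% or 17.6% in the settings where that count was 1, and 41.4% where it was 13. With heights by −log10 q-value 11 of the 77 regions were higher at SP4 than at DP, against 16.9% of all regions, so that the difference from the series nearly vanished.

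Of the 14 regions lower at SP4 than at DP, 10 were at Cd247 (19.2% of its regions) and 4 at the cluster (16%). Of the 10 higher at SP8 than at SP4, 8 were at Cd247 (15.4%) and 2 at the cluster (8%). The medians of the shared regions lay closer together than the 20 points used as a difference. Within a region the median difference was under 1 point at each step. Over the 40 called at all 4 stages, the median height was 70.0 at DN and 61.1 at DP, then 63.8 at SP4 and 66.2 at SP8, and over the 63369 of the series 73.5, 68.2, 69.4 and 67.1.

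**Figure D4:**
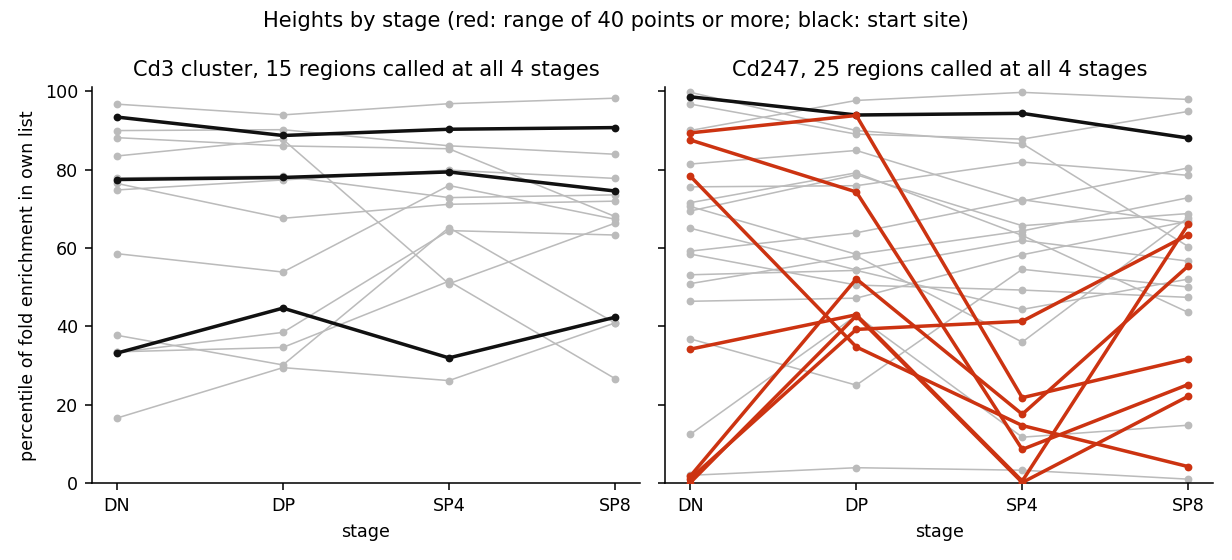
Height by stage (percentile of fold enrichment within the list) of the 15 regions of the cluster and the 25 of Cd247 that were called at all 4 stages, 1 line per region; red lines have a range of at least 40 points and black lines are start site regions. On this scale the 7 red lines are all at Cd247.

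In a window of 200 bp, motif letters near the summits of the 77 regions were mostly about as frequent as in the series. Other windows differed more. In the 200 bp around the highest summit, E-box letters, bound by E proteins such as E2A and HEB, were found in 39 regions (50.6%) against 37.0% of all regions, and ETS letters in 26 (33.8%) against 43.4%. Over the whole region the ETS shares were 51.9% and 50.7%, so the lower share was found near the summits alone. RUNX letters were found in 24 (31.2%, series 28.2%), MYB letters (CAACNG) in 23 (29.9%, series 26.9%), CTCF letters in 17 (22.1%, series 17.4%) and GATA letters in 13 (16.9%, series 13.2%). Ikaros letters (TGGGAA) were found in 13 (16.9%, series 15.2%), SP/KLF letters (GGGCGG) in 10 (13.0%, series 10.4%), TCF/LEF letters in 9 (11.7%, series 16%), AP-1 letters (TGANTCA) in 7 (9.09%, series 7.18%) and CRE letters in 3 (3.90%, series 3.27%). For TCF/LEF the comparison turned in the 100 bp around the summit, with 10.4% against 7.63%. In that window the comparison turned the other way for MYB (10.4% against 14.7%), Ikaros (5.19% against 6.68%) and SP/KLF letters (3.90% against 5.21%). In the 100 bp window RUNX letters were found in 24.7% against 17.6% and CTCF letters in 13.0% against 8.84%. AP-1 letters were found there in 7.79% against 3.88%, CRE in 3.90% against 1.68% and ETS in 18.2% against 28.8%. Over whole regions RUNX letters were found in 49.4% against 35.1%, GATA in 27.3% against 18.2% and CTCF in 33.8% against 23.3%. With 200 bp, E-boxes were present in 14 of the 25 cluster regions and 25 of the 52 Cd247 regions.

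Other genes of the TCR pathway were compared at their start sites. The 36 genes listed ran from the kinases Lck, Fyn and Zap70 to adaptors, phosphatases and surface receptors. Of the 36, 35 had a start site region at all 4 stages, against 56% of protein-coding genes, and Cd2 had one at SP4 (47.1) and SP8 (43.3) alone. The median height was 83.7 (DN), 86.4 (DP), 83.7 (SP4) and 80.8 (SP8), close to that of the 4 CD3 genes (85.4, 83.3, 84.9 and 81.3). A difference of at least 20 points between any 2 stages was found for 10 of the 36, against 15.9% of protein-coding genes. That share is not like for like. It includes genes with no start site region at any stage, which cannot differ, while all 36 had one at some stage. Lck stood at 92.2, 91.2, 89.5 and 82.7 and Zap70 at 84.6, 81.5, 85.5 and 78.8. They are given as examples because they act next to CD3, and both were level.

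The widest difference was at Ptcra, which encodes the pre-TCR alpha chain that assembles with CD3 in DN cells. Its start site stood at 94.5 at DN and 92.3 at DP, and at 28.2 at SP4 and 15.0 at SP8. With start sites within 1 kb its SP4 height was 84.4, so the low SP4 value held for the region over the start site alone. Cd2 encodes an adhesion receptor. Prkcq, the protein kinase C of the T cell synapse, had 29.1, 48.0, 9.78 and 40.8. Ubash3b, a phosphatase that restrains Zap70, had 49.0, 64.1, 26.2 and 35.6, and Sos1, an exchange factor for Ras, had 64.0, 38.7, 71.4 and 67.1. Both turned with the choice of start site. With start sites within 1 kb Ubash3b stood at 49.0, 64.1, 83.4 and 71.0, and with RefSeq start sites it was not called at any stage. With RefSeq start sites Sos1 stood at 32.4, 54.3, 22.4 and 42.3, highest instead of lowest at DP. Lcp2, Tec, Ptprc, Csk and Trat1 differed by 20 to 30 points. With RefSeq start sites Lcp2 was not called at any stage and Sla lost its SP8 call. With start sites within 1 kb Csk was highest at DN, at 67.5.

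By step, 0 of the 36 were higher at DP than at DN, against 2.35% of protein-coding genes, and 2 lower, against 5.92%. At each step the shares are of all 20698 genes, including those without a start site region. At SP4, 3 were higher than at DP, against 1.86%, and 6 lower, against 4.99%. At SP8, 3 were higher than at DP, against 1.67%, and 2 lower, against 4.3%. Between SP8 and SP4, 3 were higher at SP8, against 1.78%, and 0 lower, against 1.57%. With start sites within 1 kb, the 6 genes lower at SP4 than at DP were reduced to 3, namely Lcp2, Tec and Prkcq. No share of protein-coding genes is given for that setting. None of the 4 CD3 genes differed by 20 points at any step.

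Among 5 other adaptors that pair with receptors as CD3 does or carry ITAMs, Fcer1g, the common gamma chain of Fc receptors, had a start site region at DN alone (82.6). Tyrobp and Cd79a had none at any stage. Cd79b stood at 59.8, 44.8, 6.53 and 44.9 and Hcst, which encodes DAP10, at 42.6, 63.4, 64.2 and 63.5.

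**Figure D5:**
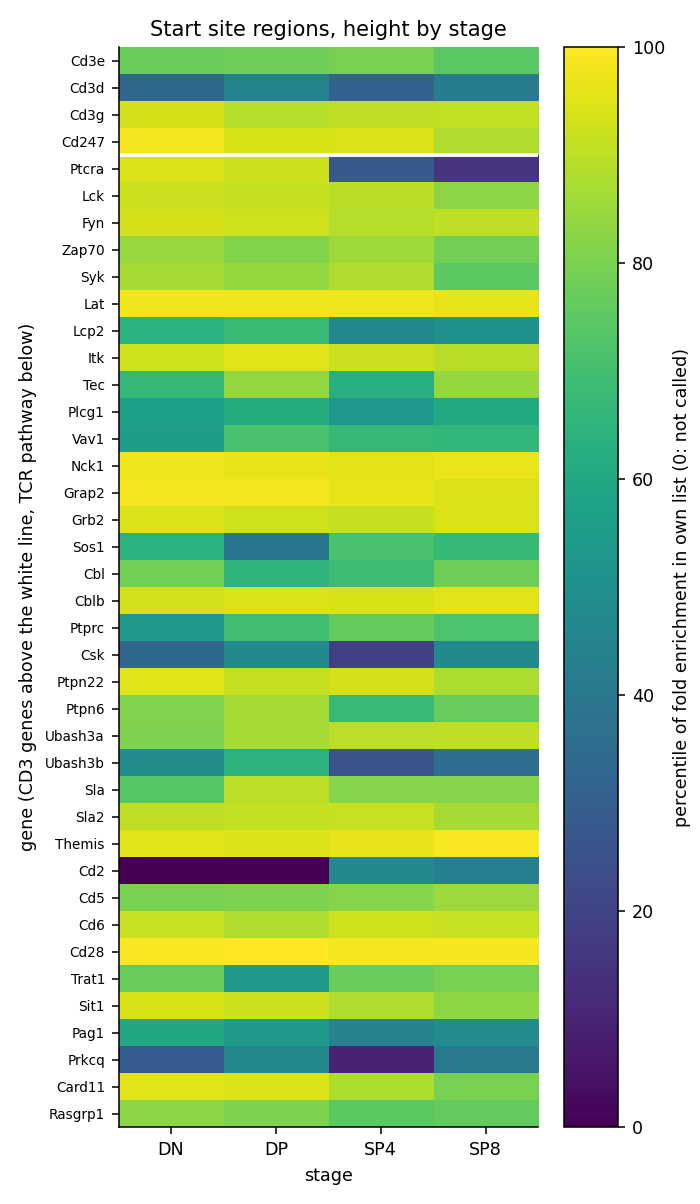
Height by stage (percentile of fold enrichment within the list, colour scale, 0 where no peak was called) of the start site regions of the 4 CD3 genes, above the white line, and of 36 TCR pathway genes below it. Ptcra is high at DN (94.5) and DP (92.3) and low at SP4 (28.2) and SP8 (15.0), Cd2 is dark at DN and DP, and the CD3 genes vary little.

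Stage markers followed the labels in part. Zbtb7b, which encodes the CD4 lineage factor ThPOK, was called at SP4 alone (56.4), Rag1 was higher at DN (84.8) and DP (88.9) than at SP4 (64.4) and SP8 (56.0), and Cd8a was lower at SP4 (18.7) than at SP8 (70.7) but stood at 71.4 in the CD8-negative DN cells. The Cd4 start site, at 37.2, 16.1, 16.5 and 5.60, was highest in the CD4-negative DN cells. Other markers also did not follow the labels. Il2ra, which encodes CD25 of DN cells, stood at 84.8, 80.3, 92.2 and 93.4 and Notch1 at 25.6, 58.0, 68.8 and 71.1, both lower at DN than in mature cells. Kit, a receptor of early DN cells, was lower at SP4 (58.1) than at DN (86.5) but stood at 83.5 at SP8. Ccr7, a chemokine receptor of mature cells, stood at 90.8 at SP8 and 98.3 at DN. Of the 16 stage markers, Cd40lg on the X chromosome was not assessed, because the lists cover chromosomes 1 to 19, and 13 had a region at all 4 stages.

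Of 5 myeloid markers, Itgam was higher in the mature lists (60.7, 45.6, 87.0 and 91.5) and Lyz2, which encodes lysozyme, was called at DN alone (88.4), while Csf1r, Cd14 and Spi1 were not called at any stage. The summed heights of the list were 149 at DN and 45.6 at DP, then 87.0 at SP4 and 91.5 at SP8, the DN sum being highest through Lyz2. Of 5 natural killer cell markers, Eomes was level (61.4, 66.6, 55.0 and 61.2) and Fcer1g was called at DN alone, with sums of 144, 66.6, 55.0 and 61.2, and Ncr1, Klrb1c and Tyrobp were not called. Among B cell markers, Pax5 (highest, 93.1 at SP4) and Cd79b were called at all 4 stages and Cd79a and Ms4a1 at none. Of 3 epithelial markers, Epcam alone was called, with 75.6, 69.8, 65.7 and 65.3, and the erythroid markers Klf1 and Hbb-bt were not called. The part of other cells in the DN values of the CD3 loci was not tested.

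The genes whose start site heights were most like those of a member were found over the 4 stages, by the greatest difference at any stage, among 11590 genes with a region at all 4. For Cd3e they were Dcp1b (0.826 points), Mast3 (1.15), Hnrnpl (1.37), AA467197 (1.37) and Ddx17 (1.8). For Cd3g they were Epb41 (1.12), Irf9 (1.15), Srrm1 (1.23), Timm44 (1.32) and Fbxo7 (1.39). For Cd3d they were Gm49510 and Sh3bp1, which share a region (3.96), Irf2bp1 (5), Dennd4c (5.21) and Slc37a3 (5.49). For Cd247 they included Clhc1 and Rps27a, which share a region (2.09), and Hsd11b1 (2.14). Such likeness was common, since 947 genes lay within 5 points of Cd3g at every stage, 331 of Cd3e, 186 of Cd247 and 2 of Cd3d.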

How the data were processed

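The authors did ATAC-seq on sorted thymocytes of 4 mice at 4 stages. They aligned reads with BWA to the mm10 genome, took out duplicates by Picard, brought each library down to the median depth, pooled the mice of a stage and called peaks with MACS2, the caller that the submitters' processing notes name. The fold enrichment of each peak, a ratio over the local background, and its −log10 q-value were deposited by the authors as MACS2 gave them; the highest q-value was 0.0498. Pooling hides differences between mice, and signal under the threshold of the caller appears as no peak. Summit positions were also used as deposited.

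Coordinates are mm10, counted from 1, and 0 peaks ran past the end of a chromosome. Regions, heights, motifs and start sites were computed with python 3.11.15, numpy 2.4.6 and pandas 2.3.3, drawn with matplotlib 3.10.9 and tested on simulated lists. Named regions were those at a member's start site, the 10 others with the highest percentile at any stage and those called at some stages only with a percentile of at least 50. Named pathway genes lacked a region at a stage or differed by at least 30 points. The members and lists were chosen with earlier results of these data known. Alternatives covered the q-value, window, annotation, overlap, height and motif window.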

Additional observations from a re-analysis of the deposited data

How the results depend on the processing

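No paired analysis was possible because the authors pooled the 4 mice of a stage into 1 list, and leaving out each mouse could not be run for the same reason. The numbers of peaks at the loci stayed within 1.5 times under all 28 alternatives, and the numbers of regions under 23 of 24: with gene bodies alone, regions called at all 4 stages numbered 26 in place of 40, because the windows were smaller. Counts of pathway genes at their start sites moved in 7 of 20 cases. Within 1 kb, 1 was lower at DP than at DN, 3 lower at SP4 than at DP, 1 lower at SP8 than at DP and 1 lower at SP8 than at SP4. With RefSeq start sites, 1 was higher and 1 lower at DP than at DN and 1 lower at SP8 than at SP4. No share of protein-coding genes is given under these start site settings, so the counts are not compared with genes at large. With start sites within 1 kb, Cd3d took the height of the region at its 3′ end (90, 90.2, 86.1 and 83.9), since a short transcript starts beside it.

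Counts of height differences moved in 32 of 56 cases. With heights by −log10 q-value, 12 regions were lower at DP than at DN, 11 higher at SP4 than at DP and 9 lower at SP8 than at SP4, against 29.5%, 16.9% and 13.3% of the series. At 10 points these 3 counts were 13, 12 and 10, against 41.4%, 25.7% and 22.6% of the series. At that limit 15 were higher at SP8 than at DP, against 20.7%. At 30 points, 3 were lower at DP than at DN, against 21.8%, and 3 higher at SP4 than at DP, against 11.8%. From DP to SP8, 3 were higher and 7 lower at SP8, against 8.95% and 9.66%. Between SP8 and SP4, 4 were higher and 2 lower at SP8, against 4.42% and 8.37%. Over regions called at both stages, 2 were lower at DP than at DN, 4 higher at SP8 than at DP and 6 higher at SP8 than at SP4. The shares of the series were 20.5%, 12.7% and 8.15%. These counts are out of fewer regions than the 77. Percentiles among regions called at all 4 stages were chosen after seeing the data and cover 40 of the 77 regions. They gave 3 higher and 1 lower at DP than at DN, against 12.2% and 13.2% of such regions of the series. From DP to SP8 they gave 5 higher and 6 lower at SP8, against 14.1% and 14.0%. Between SP8 and SP4 they gave 5 higher and 3 lower at SP8, against 8.51% and 9.29%. Fold enrichments at least 2-fold apart, also chosen after seeing the data, gave 3 higher and 2 lower at DP than at DN, 1 higher and 6 lower at SP4 than at DP, 0 higher and 4 lower at SP8 than at DP, and 2 higher and 1 lower at SP8 than at SP4. Equal numbers of peaks per list, also chosen after seeing the data, gave 18 higher and 1 lower at DP than at DN. Only regions that kept a peak were counted, and the shares of such regions of the series were 17.3% and 17.6%. Beyond the stricter or looser limits, the cause was not tested. Motif counts moved in 14 of 22 cases, as windows were shorter or longer. The lists hold only called peaks, so a region without a peak may hold signal under the threshold.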
